A study of Mus musculus with 8 samples.

Results

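The transcripts of glycolysis and of the pentose phosphate pathway were described in bulk RNA-seq of splenic B cells from 8 transgenic mice. The members were 32 genes named by symbol. They comprised 4 transporters of glucose and lactate, 11 enzymes of upper glycolysis, 6 of lower glycolysis, 4 of pyruvate and lactate metabolism and 7 of the pentose phosphate pathway, out of 24902 symbols in the counts. A value in all 8 libraries was given for 31 members, and all 31 passed the filter on low counts, as did 13173 of the 14072 symbols with 8 values. The other member, Aldoc, had no value in Eµ-PRMT5 mouse 1 and entered neither a test nor a share of aldolases. Its raw counts were 21, 88 and 84 in Eµ-PRMT5 mice 2 to 4, 33, 52 and 102 across Eµ-PRMT5/TCL1 animals 1 to 3, with 13 for Eµ-TCL1.

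All mice were labelled C57BL/6N. The 4 Eµ-PRMT5 mice carried Eµ-hPRMT5, a human PRMT5 cDNA driven in B cells by a mouse V_H promoter and the IgH Eµ enhancer. The 3 Eµ-PRMT5/TCL1 mice carried Eµ-hPRMT5 and Eµ-hTCL1, and the 1 Eµ-TCL1 mouse carried Eµ-hTCL1 alone, the established model of chronic lymphocytic leukemia (CLL). All had reached early removal criteria (ERC), the defined endpoint of disease, and B cells were isolated untouched with a pan-B-cell kit. The label of Eµ-PRMT5 mouse 2 carries the identifier that the methods give to a founder of the line, ages are not given in the sources used here, and the methods describe mixed sexes. The labels of Eµ-PRMT5 mice 3 and 4 carry numbers that the paper also uses in its histology. There the number of mouse 3 goes with large anaplastic lymphocytes and histiocytes, and that of mouse 4 with sheets of small lymphocytes. Whether these are the same animals is not stated. Every group carried at least 1 oncogenic transgene, and WT mice were not analysed here.

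Glycolysis breaks glucose down to pyruvate in the cytosol, yielding ATP and NADH. Its upper steps spend ATP to prime and split the sugar, its lower steps recover ATP, and lactate dehydrogenase turns pyruvate into lactate to regenerate NAD. The pentose phosphate pathway branches off at glucose 6-phosphate and supplies NADPH and ribose 5-phosphate for nucleotides. Resting B cells keep these pathways low and raise them when they are activated and divide, and many of the genes are known targets of MYC and HIF1A.

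Counts on genes ranged from 3356297 in the Eµ-TCL1 mouse to 10252426 in Eµ-PRMT5 mouse 4. Levels are given as CPM, read counts divided by the library total after TMM scaling. The tests set a difference between groups against the spread between single mice, estimated in 1 model of the 3 genotypes. Eµ-PRMT5 mouse 4 stood apart, as was seen only with its values at hand. Its 8 B-cell markers summed to 2349 CPM, against 4256 to 9918 CPM in the other 7 mice. Its 16 proliferation genes summed to 7638 CPM, against 685 to 3439 CPM, and 16 of 16 were highest in this mouse. Summed neutrophil markers ranged from 501 to 9470.0 CPM over the 8 mice, highest in Eµ-PRMT5/TCL1 mouse 1 and next in Eµ-PRMT5 mouse 4 (5682 CPM), and macrophage markers from 997 to 7359 CPM, with the same 2 mice highest. Erythroid markers summed to 348 CPM in Eµ-PRMT5 mouse 4 and 323 CPM in Eµ-PRMT5/TCL1 mouse 1, against 20.4 to 97.4 CPM in the other 6. T-cell markers were lowest in Eµ-PRMT5 mouse 4 (229 CPM) and highest in Eµ-PRMT5 mouse 3 (733 CPM). All 8 B-cell markers were detected in every library, none of the tested markers of the other lists was at 0 in any library, and 4 of 10 T-cell (among them Cd4 and Cd8a), 4 of 10 macrophage and 4 of 9 erythroid markers were not among the tested genes. Prmt5, the mouse ortholog of the transgene, measured 128, 171, 62.7 and 235 CPM across Eµ-PRMT5 animals 1 to 4, 110.0, 115 and 126 CPM across Eµ-PRMT5/TCL1 animals 1 to 3, with 79.5 CPM in the lone Eµ-TCL1 animal. How transgene reads were treated in counting is not given in the sources used here.

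Most members were highest in Eµ-PRMT5 mouse 4. The 31 members together held 0.518%, 0.787%, 0.599% and 1.72% of all counts across Eµ-PRMT5 animals 1 to 4, 0.914%, 0.700% and 0.679% across Eµ-PRMT5/TCL1 animals 1 to 3, with 0.399% for Eµ-TCL1. Of the 31, 22 were highest in Eµ-PRMT5 mouse 4, against 20.1% of all tested genes. The count was 17 under library-size or upper-quartile scaling, against 13.9% and 15.3% of all genes. In this mouse 16 members were over 2-fold above the median of the other 7 mice, against 11.3% of all genes, and the median over the members was 2.03-fold where that over all genes was 0.951-fold. At the other end, 13 members were lowest in the Eµ-TCL1 mouse, against 14.2% of all genes, and 8 in Eµ-PRMT5 mouse 1, which is close to the 20.4% of all genes. With library size only, these counts were 9, against 8.15% of all genes, and 11, against 25.1%. In bulk RNA, more cells of a kind and more RNA of a gene per cell cannot be told apart. The part of the marker levels given above in the values of Eµ-PRMT5 mouse 4 was not tested.

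**Figure D1:**
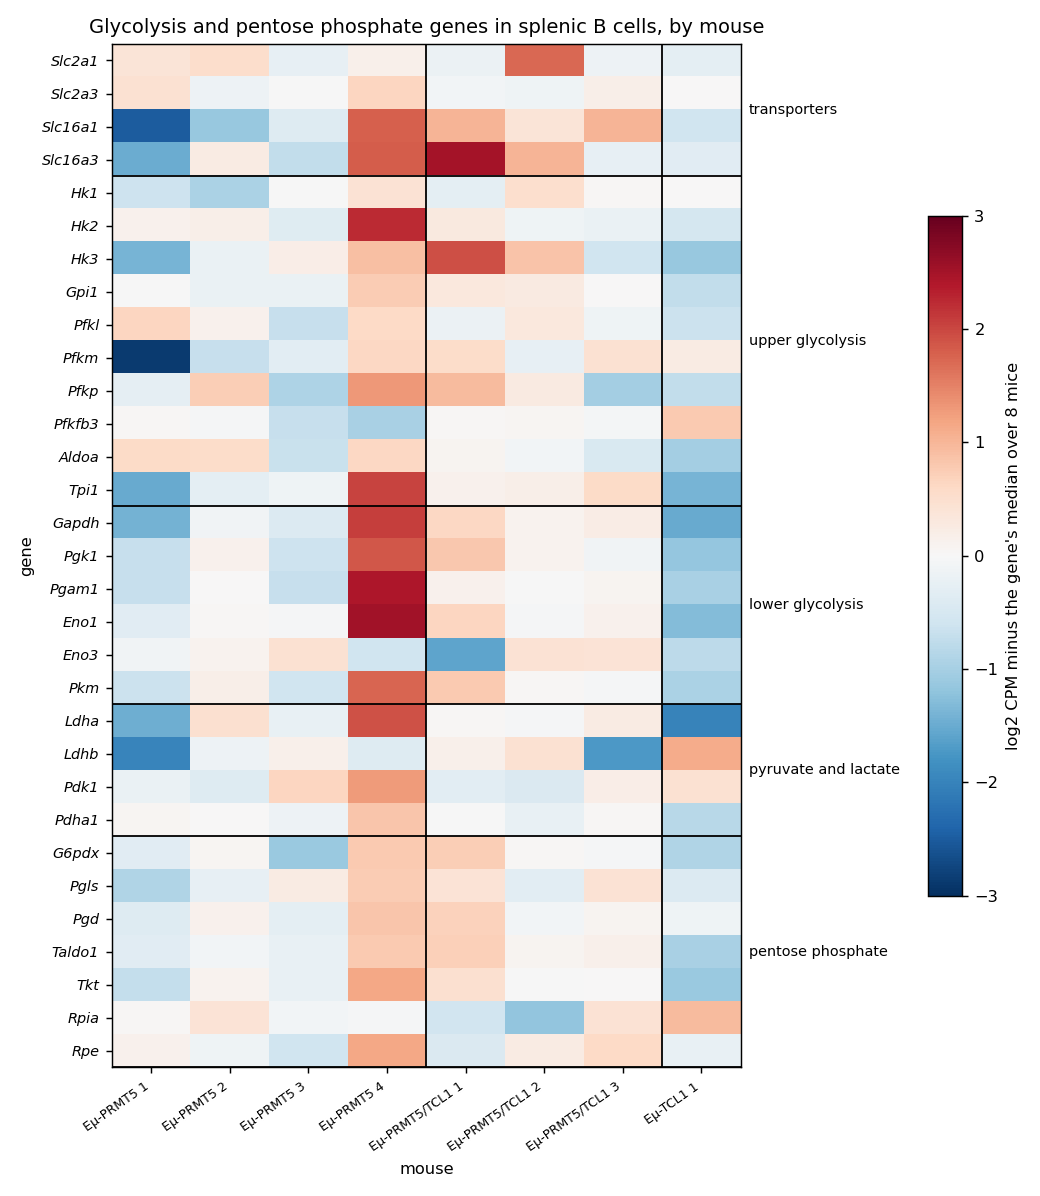
Heat map of the 31 members (rows, grouped by step of the pathway) in each of the 8 mice (columns); color is log2 CPM minus the gene's median over the 8 mice, and black lines part the genotypes and the steps. Eµ-PRMT5 mouse 4 is the highest mouse for 22 members, with the deepest red in lower glycolysis, and the Eµ-TCL1 mouse is the lowest for 13.

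The mean log2 CPM over the 31 members was 6.05, 6.61, 6.34 and 7.66 across Eµ-PRMT5 animals 1 to 4, 6.96, 6.76 and 6.65 across Eµ-PRMT5/TCL1 animals 1 to 3, with 6.08 for Eµ-TCL1. The 3 Eµ-PRMT5/TCL1 mice lay close together, at 6.79 ± 0.16 (SD, n = 3), and above Eµ-PRMT5 mice 1 to 3. The Eµ-PRMT5 mice averaged 6.67 ± 0.70 (SD, n = 4), and 6.33 ± 0.28 (SD, n = 3) without mouse 4. On this scale Eµ-PRMT5/TCL1 exceeded Eµ-PRMT5 by 0.13 with all mice, by 0.46 without Eµ-PRMT5 mouse 4, and was 0.08 below it (difference -0.08) without Eµ-PRMT5 mouse 1. The proliferation genes had a mean log2 CPM of 5.12, 4.59, 6.04 and 8.66 across Eµ-PRMT5 animals 1 to 4, 7.20, 6.30 and 7.31 across Eµ-PRMT5/TCL1 animals 1 to 3, with 5.78 for Eµ-TCL1. Both lists were highest in Eµ-PRMT5 mouse 4, and in both the 3 Eµ-PRMT5/TCL1 mice lay above Eµ-PRMT5 mice 1 to 3 and the Eµ-TCL1 mouse.

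**Figure D2:**
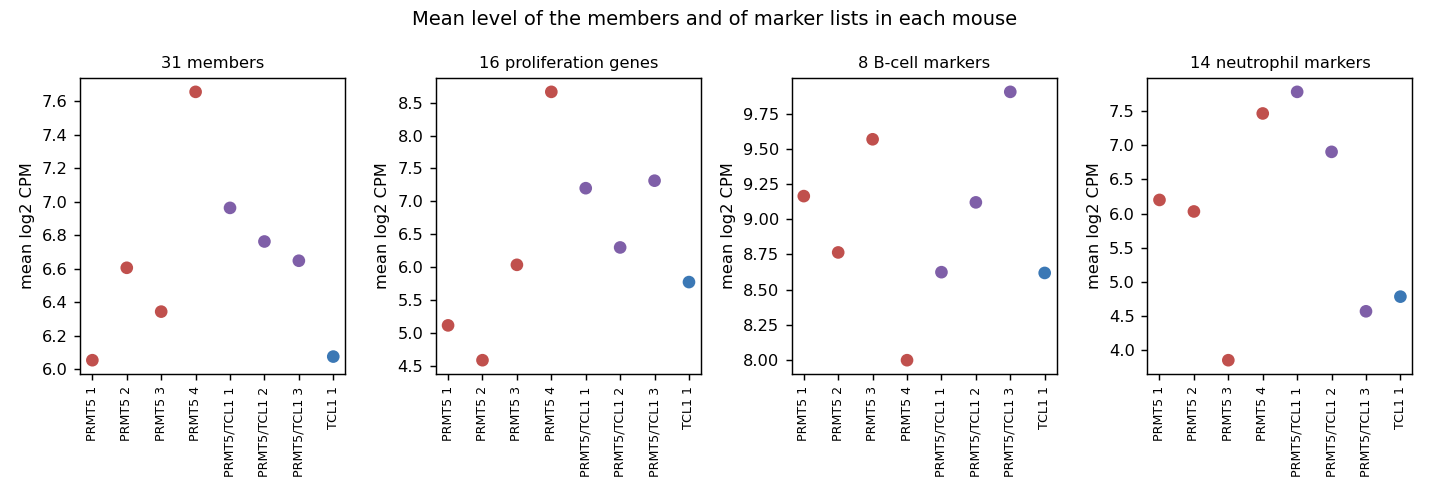
Mean log2 CPM per mouse (vertical axes) of the 31 members, 16 proliferation genes, 8 B-cell markers and 14 neutrophil markers; each dot is 1 mouse, red for Eµ-PRMT5, purple for Eµ-PRMT5/TCL1 and blue for Eµ-TCL1. Eµ-PRMT5 mouse 4 is highest for the members (7.66) and proliferation genes (8.66) and lowest for the B-cell markers.

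Lower glycolysis held the members with the largest lead in Eµ-PRMT5 mouse 4, and 5 of its 6 genes were highest there. Eno1, the ubiquitous enolase, which makes phosphoenolpyruvate (chromosome 4, 150236721 to 150248879, GRCm38), measured 618, 796, 770.3 and 4476 CPM across Eµ-PRMT5 animals 1 to 4, 1231, 770.4 and 862 CPM across Eµ-PRMT5/TCL1 animals 1 to 3, with 316 CPM in the lone Eµ-TCL1 animal. Its level in mouse 4 was 5.81-fold the median of the other 7 mice and 3.64-fold the next mouse. The remaining Eµ-PRMT5 mice overlapped the Eµ-PRMT5/TCL1 mice, and the Eµ-TCL1 mouse was the lowest.

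Pgam1, the phosphoglycerate mutase that shifts the phosphate from carbon 3 to carbon 2 (chromosome 19, 41911923 to 41918660), measured 99.0, 159.7, 98.5 and 856 CPM across Eµ-PRMT5 animals 1 to 4. It measured 175, 159 and 169 CPM across Eµ-PRMT5/TCL1 animals 1 to 3 with 80.8 CPM in the lone Eµ-TCL1 animal. The lead of mouse 4 over the next mouse, 4.88-fold, was the largest among the 31 members. Pkm, pyruvate kinase of most tissues, which makes pyruvate and ATP, measured 652, 1152, 677 and 3408 CPM across Eµ-PRMT5 animals 1 to 4, 1765, 1049 and 988 CPM across Eµ-PRMT5/TCL1 animals 1 to 3, with 532 CPM in the lone Eµ-TCL1 animal. It showed the same order at both ends, with Eµ-PRMT5/TCL1 mouse 1 second.

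Pgk1, the X-linked phosphoglycerate kinase that yields the first ATP, measured 93.2, 163, 97.1 and 545 CPM across Eµ-PRMT5 animals 1 to 4, 261, 161 and 138 CPM across Eµ-PRMT5/TCL1 animals 1 to 3, with 66.5 CPM in the lone Eµ-TCL1 animal. Gapdh, the dehydrogenase that makes NADH and a common reference gene for expression, measured 29.4, 73.0, 59.0 and 328 CPM across Eµ-PRMT5 animals 1 to 4, 119, 83.5 and 91.1 CPM across Eµ-PRMT5/TCL1 animals 1 to 3, with 27.6 CPM in the lone Eµ-TCL1 animal. Both were highest in Eµ-PRMT5 mouse 4, and Gapdh spanned an over 10-fold range among these B-cell isolates. The level of Gapdh is uncertain, because 77 annotated genes match its transcripts at 95% identity or more over 300 bases, 74 of them pseudogenes. The 4 such genes with a row in the counts held a larger share of the library than Gapdh in every mouse, 557 against 277 CPM without TMM scaling in Eµ-PRMT5 mouse 4 and 44.7 against 26.4 in mouse 1. Near-identical copies were also annotated for Gpi1, Tpi1, Pgk1, Pgam1, Eno1, Pkm, Ldha and Ldhb, of which only Eno1 had one with a row in the counts (Eno1b, 265 CPM in Eµ-PRMT5 mouse 4 and 25.4 to 78.7 CPM in the others).

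Exons of 12 members (Slc2a1, Hk1, Hk3, Gpi1, Pfkm, Pfkp, Aldoa, Tpi1, Gapdh, Pdha1, G6pdx and Rpe) overlap those of a gene on the opposite strand, and whether strand was used in counting is not given in the sources used here. Pfkm, Pkm, Pgls and Tkt overlap exons of a gene on the same strand (Gm26513, Gm49759, Fam129c and Mir3076).

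Eno3, the muscle enolase, was the exception in lower glycolysis. It measured 68.0, 79.2, 101 and 48.4 CPM across Eµ-PRMT5 animals 1 to 4, 24.4, 98.9 and 97.1 CPM across Eµ-PRMT5/TCL1 animals 1 to 3, with 42.4 CPM in the lone Eµ-TCL1 animal. Its level in Eµ-PRMT5 mouse 4 was 0.612-fold the median of the others, and its lowest mouse was Eµ-PRMT5/TCL1 mouse 1.

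In upper glycolysis 6 of 10 measured genes were highest in Eµ-PRMT5 mouse 4. Hk2, the inducible hexokinase bound to mitochondria, measured 28.2, 29.0, 20.1 and 121 CPM across Eµ-PRMT5 animals 1 to 4, 31.3, 23.4 and 22.3 CPM across Eµ-PRMT5/TCL1 animals 1 to 3, with 17.8 CPM in the lone Eµ-TCL1 animal. Tpi1, the triose phosphate isomerase, measured 96.0, 221, 247 and 1117 CPM across Eµ-PRMT5 animals 1 to 4, 299.9, 309 and 406 CPM across Eµ-PRMT5/TCL1 animals 1 to 3, with 103 CPM in the lone Eµ-TCL1 animal. In Eµ-PRMT5 mouse 4, Hk2 was 5.14-fold and Tpi1 4.52-fold the median of the other 7. Gpi1, glucose phosphate isomerase, and the phosphofructokinases Pfkm and Pfkp were highest in the same mouse by 1.38-fold, 1.04-fold and 1.27-fold over the next mouse. Aldoa, the main aldolase, was nearly level in Eµ-PRMT5 mice 1, 2 and 4 (1717, 1672 and 1762 CPM) and measured 724 CPM in mouse 3, 1219, 1078 and 835 CPM across Eµ-PRMT5/TCL1 animals 1 to 3, with 568 CPM in the lone Eµ-TCL1 animal.

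The other upper members had other leading mice. Hk1, the constitutive hexokinase, was highest in Eµ-PRMT5/TCL1 mouse 2 (181 CPM), and Pfkl, the liver-type phosphofructokinase, in Eµ-PRMT5 mouse 1 (307 CPM). Hk3, the hexokinase of myeloid cells, measured 11.6, 26.6, 34.9 and 56.5 CPM across Eµ-PRMT5 animals 1 to 4, 117, 55.3 and 20.0 CPM across Eµ-PRMT5/TCL1 animals 1 to 3, with 13.8 CPM in the lone Eµ-TCL1 animal. Of the members, 2 were highest in Eµ-PRMT5/TCL1 mouse 1, Hk3 and the lactate exporter Slc16a3, against 6.38% of all genes, and 6 were under library-size or upper-quartile scaling, against 6.89% and 7.36%. That mouse also had the highest summed neutrophil (9470.0 CPM) and macrophage (7359 CPM) markers, and their part in these values was not tested. Pfkfb3, whose product makes fructose 2,6-bisphosphate, the activator of phosphofructokinase, ran the other way. It measured 112, 105, 67.5 and 54.9 CPM across Eµ-PRMT5 animals 1 to 4, 112, 113 and 104 CPM across Eµ-PRMT5/TCL1 animals 1 to 3, with 186 CPM in the lone Eµ-TCL1 animal, so that Eµ-PRMT5 mouse 4 was the lowest and the Eµ-TCL1 mouse the highest.

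Among the genes of pyruvate and lactate metabolism, Ldha, the lactate dehydrogenase subunit that favors lactate formation (chromosome 7, 46841475 to 46855627), measured 336, 1307, 794 and 3473 CPM across Eµ-PRMT5 animals 1 to 4. It measured 958, 905 and 1111 CPM across Eµ-PRMT5/TCL1 animals 1 to 3 with 233 CPM in the lone Eµ-TCL1 animal. The 3 Eµ-PRMT5/TCL1 mice lay within the wide range of the Eµ-PRMT5 mice. Ldhb, the subunit that favors pyruvate, was highest in the Eµ-TCL1 mouse (20.8 CPM), against 2.44 to 13.3 CPM in the others. Pdk1, the kinase that shuts off pyruvate dehydrogenase, reached 86.5 CPM in Eµ-PRMT5 mouse 4 and 26.7 to 56.1 CPM elsewhere. Pdha1, a subunit of pyruvate dehydrogenase itself, reached 184 CPM in that mouse and 57.6 to 107 CPM elsewhere.

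Of the transporters, both lactate carriers were in the upper range in Eµ-PRMT5 mouse 4 and neither glucose carrier stood out there by more than 1.56-fold. Slc16a1, which carries lactate in either direction (MCT1), measured 2.84, 7.28, 12.3 and 55.6 CPM across Eµ-PRMT5 animals 1 to 4, 32.6, 20.7 and 32.4 CPM across Eµ-PRMT5/TCL1 animals 1 to 3, with 10.5 CPM in the lone Eµ-TCL1 animal. The 3 Eµ-PRMT5/TCL1 mice were all above Eµ-PRMT5 mice 1 to 3 and all below mouse 4. Slc16a3, the lactate exporter MCT4, measured 4.87, 16.3, 8.21 and 48.2 CPM across Eµ-PRMT5 animals 1 to 4, 77.5, 27.9 and 11.5 CPM across Eµ-PRMT5/TCL1 animals 1 to 3, with 10.8 CPM in the lone Eµ-TCL1 animal. Slc2a1, the widespread glucose carrier GLUT1, was highest in Eµ-PRMT5/TCL1 mouse 2, at 161 CPM, and measured 39.7 to 70.8 CPM in the other 7. Slc2a3, the high-affinity glucose carrier GLUT3, varied least among the transporters, from 33.1 to 57.2 CPM.

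In the pentose phosphate pathway 6 of 7 genes were highest in Eµ-PRMT5 mouse 4, but by less than in lower glycolysis, with a median lead of 1.89-fold over the median of the other mice against 4.22-fold. Tkt, transketolase of the non-oxidative branch, measured 195, 347, 277 and 716 CPM across Eµ-PRMT5 animals 1 to 4, 451, 317.3 and 325 CPM across Eµ-PRMT5/TCL1 animals 1 to 3, with 148 CPM in the lone Eµ-TCL1 animal. G6pdx, the X-linked glucose 6-phosphate dehydrogenase that commits glucose to the pathway, measured 91.3, 120.5, 54.0 and 201 CPM across Eµ-PRMT5 animals 1 to 4, 193, 119 and 113 CPM across Eµ-PRMT5/TCL1 animals 1 to 3, with 61.9 CPM in the lone Eµ-TCL1 animal. For G6pdx, Eµ-PRMT5/TCL1 mouse 1 was nearly level with Eµ-PRMT5 mouse 4. The next steps of the oxidative branch, Pgls and Pgd, reached 162 and 186 CPM in Eµ-PRMT5 mouse 4 and stayed between 50.9 and 129.8 CPM and between 79.6 and 170.0 CPM in the others. Taldo1, transaldolase, reached 509 CPM there and 490.2 CPM in Eµ-PRMT5/TCL1 mouse 1, with 152 CPM in the Eµ-TCL1 mouse. Rpe, the ribulose phosphate epimerase, spanned 16.2 to 54.4 CPM. Rpia, the isomerase that makes ribose 5-phosphate, was the exception, highest in the Eµ-TCL1 mouse (30.8 CPM) and 7.01 to 21.5 CPM in the others. Together with Pfkfb3 and Ldhb, Rpia made up the 3 members that were highest in the Eµ-TCL1 mouse, against 21.3% of all genes.

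**Figure D3:**
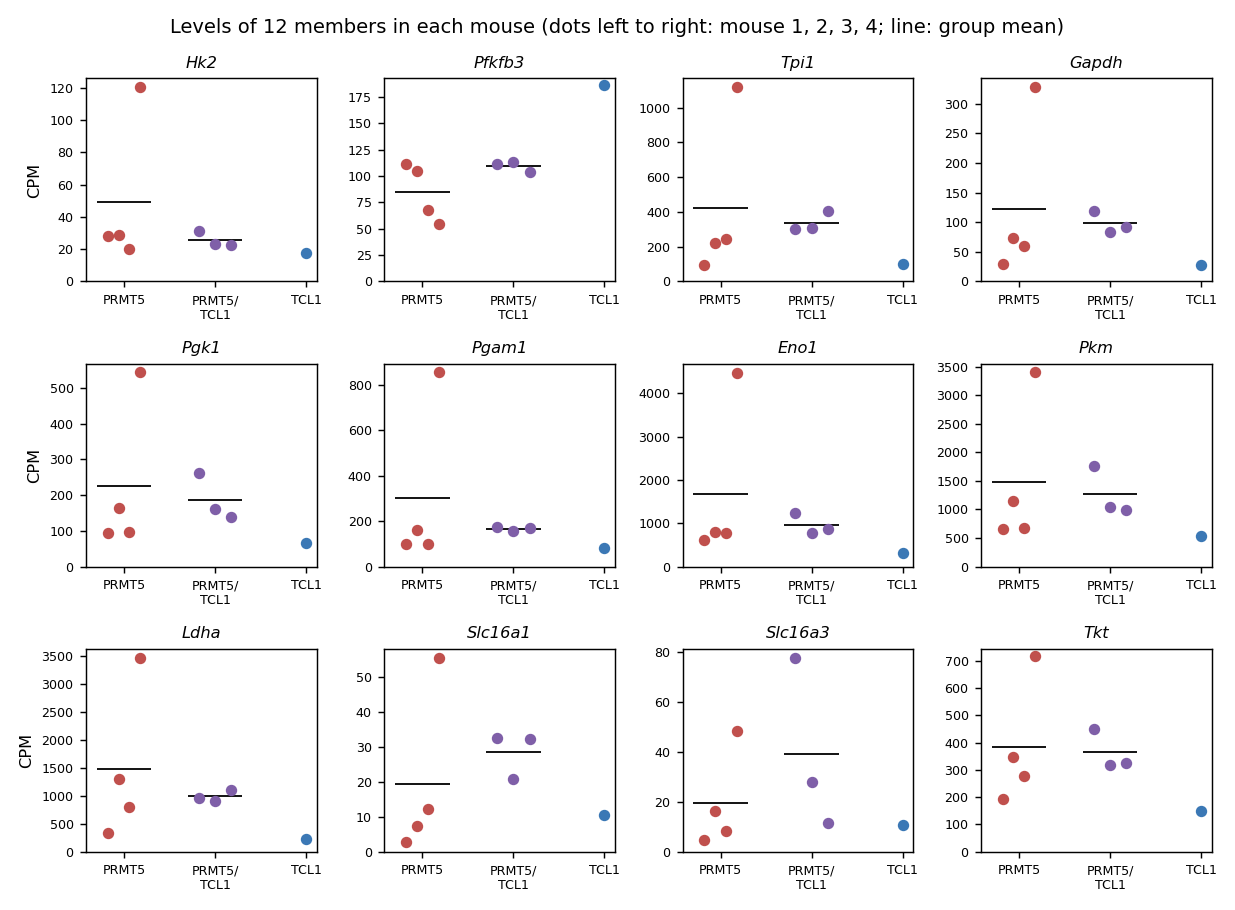
CPM (vertical axes, linear from 0) of 12 members in each mouse, by genotype (horizontal axes); each dot is 1 mouse, in the order of the mouse numbers, and lines are group means. Eµ-PRMT5 mouse 4 is far above the rest for Eno1 (4476), Pgam1 (856) and Hk2 (121), and lowest for Pfkfb3 (54.9).

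Upstream sequence is shown for 5 members described above, chosen with their values known: Ldha and Slc16a1 of lactate metabolism, Pgam1 and Eno1, which lead in Eµ-PRMT5 mouse 4 when set against the median of the other 7, and Pfkfb3, which was lowest in that mouse. Each is the 250 bases before the most upstream RefSeq start of the gene (build GRCm38.p6), 5′ to 3′ on the strand of the gene. Capitals mark CACGTG, the letters of the E-box that MYC and MAX can bind, and ACGTG on either strand, a core of the hypoxia response element, which every CACGTG contains.
Ldha, chr7:46845554-46845803, strand plus: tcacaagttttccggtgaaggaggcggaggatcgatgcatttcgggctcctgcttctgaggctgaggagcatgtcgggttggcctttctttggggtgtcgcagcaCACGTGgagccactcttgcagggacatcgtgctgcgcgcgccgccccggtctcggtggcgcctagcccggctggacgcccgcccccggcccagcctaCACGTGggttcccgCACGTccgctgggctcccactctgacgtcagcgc
Slc16a1, chr3:104638414-104638663, strand plus: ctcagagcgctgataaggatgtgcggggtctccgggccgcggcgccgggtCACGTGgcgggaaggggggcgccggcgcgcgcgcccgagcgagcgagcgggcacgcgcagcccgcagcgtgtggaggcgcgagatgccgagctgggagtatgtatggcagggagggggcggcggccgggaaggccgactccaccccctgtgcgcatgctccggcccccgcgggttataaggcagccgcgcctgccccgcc
Pgam1, chr19:41911621-41911870, strand plus: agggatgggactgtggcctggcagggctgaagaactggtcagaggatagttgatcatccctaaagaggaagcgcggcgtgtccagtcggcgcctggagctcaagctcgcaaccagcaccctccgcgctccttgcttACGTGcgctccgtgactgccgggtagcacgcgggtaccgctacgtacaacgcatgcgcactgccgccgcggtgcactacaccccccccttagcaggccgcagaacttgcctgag
Eno1, chr4:150236458-150236707, strand plus: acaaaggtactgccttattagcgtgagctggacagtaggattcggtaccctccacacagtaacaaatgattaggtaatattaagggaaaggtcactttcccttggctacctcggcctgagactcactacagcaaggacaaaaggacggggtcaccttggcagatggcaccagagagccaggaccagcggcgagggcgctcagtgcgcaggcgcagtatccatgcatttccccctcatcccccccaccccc
Pfkfb3, chr2:11553930-11554179, strand minus: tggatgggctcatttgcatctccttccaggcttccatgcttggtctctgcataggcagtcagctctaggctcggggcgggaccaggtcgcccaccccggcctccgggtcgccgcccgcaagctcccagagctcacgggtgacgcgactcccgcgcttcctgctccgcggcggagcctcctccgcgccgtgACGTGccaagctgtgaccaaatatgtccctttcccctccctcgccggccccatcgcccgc

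Ldha held 2 CACGTG, 145 and 48 bases before the start, and Slc16a1 held 1, at 200 bases. The RefSeq start used for Ldha, after position 46845803, lies inside the span that GENCODE gives the gene, which begins at 46841475, so this stretch is not upstream of every annotated Ldha transcript. The stretch of Pfkfb3, which runs up to 11554179, likewise overlaps the GENCODE span, whose end is 11554077. The stretches of Pgam1 and Pfkfb3 had 1 ACGTG each and no CACGTG, and that of Eno1 had neither. RefSeq promoters were at hand for 31 of the 32 members, all but Slc2a3. In the same window, CACGTG was found in 3 of the 31 (Slc16a1, Pfkm and Ldha), or 9.68%, against 6.04% of 27025 genes. ACGTG on either strand was found in 10 of the 31, or 32.3%, against 16.5%, and GCGTG on either strand, the other core of the hypoxia response element, in 18 of the 31, or 58.1%, against 28.3%. These are matches of letters, and base composition of the stretches was not accounted for. Myc measured 55.8, 368, 267 and 211 CPM across Eµ-PRMT5 animals 1 to 4. It measured 144, 219 and 474 CPM across Eµ-PRMT5/TCL1 animals 1 to 3, with 84.6 CPM for Eµ-TCL1. In the same order Hif1a measured 260, 152, 47.4 and 88.3 CPM, then 151, 199 and 71.0 CPM, with 66.2 CPM for Eµ-TCL1. Neither was highest in Eµ-PRMT5 mouse 4, and their part in the levels of the members was not tested.

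The comparison of Eµ-PRMT5/TCL1 with Eµ-PRMT5 B cells asks whether mice with both transgenes had other levels of these transcripts than mice with PRMT5 alone. It is the only one with replicates on both sides. The paper reports a shorter median survival for Eµ-PRMT5/TCL1 than for Eµ-PRMT5 mice, so age at ERC may differ with genotype. In these data age and genotype cannot be told apart. No member passed the threshold of edgeR's quasi-likelihood test, an adjusted p under 0.05, and 0% of all 13173 genes did. The lowest adjusted p of a member was 1.00, and 0 of 31 members had an unadjusted p under 0.05 in either direction, against 0.957% of all genes higher and 1.21% lower in Eµ-PRMT5/TCL1. DESeq2 also called 0 members, while of all 13173 genes it called 3 higher and 1 lower at an adjusted p under 0.05. At an unadjusted p under 0.05 DESeq2 had 0 members, against 1.11% of all genes higher and 1.88% lower. Members had log2 fold changes from -0.95 (Hk2, SE 0.58) to 0.99 (Slc16a3, SE 0.77), with a median of -0.10 where that over all genes was -0.09. Of the 31, 13 were above 0, against 40.6% of all genes. No member had every Eµ-PRMT5/TCL1 mouse above every Eµ-PRMT5 mouse, or every one below, against 1.35% and 1.59% of all genes.

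The comparison depended on Eµ-PRMT5 mouse 4. With all mice, Eno1 was 1665 ± 1875 CPM (SD, n = 4) in Eµ-PRMT5 and 955 ± 244 CPM (SD, n = 3) in Eµ-PRMT5/TCL1, a log2 fold change of -0.80 (SE 0.66). Without mouse 4 the mean of the Eµ-PRMT5 mice was 728 CPM and the log2 fold change of Eno1 was 0.39 (SE 0.33). Pgam1 went from -0.86 (SE 0.68) to 0.49 (SE 0.31), Ldha from -0.58 (SE 0.63) to 0.29 (SE 0.45), and Pkm from -0.22 (SE 0.58) to 0.62 (SE 0.38). Hk2 went from -0.95 to -0.00. The SD of the Eµ-PRMT5 group was larger than its mean for Eno1, Pgam1, Tpi1, Gapdh, Slc16a1 and Slc16a3.

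Eµ-PRMT5 mouse 4 was singled out for its values, and 22 of 31 members were highest in it, against 20.1% of all genes. Leaving it out therefore raises the fold changes of most members by construction. The shares of all genes given below are no yardstick for that. The same holds for the proliferation genes, of which 16 of 16 were highest in it. Without mouse 4, 23 of 31 members had a log2 fold change above 0, against 43.9% of all genes. The median over the 31 members was 0.42 where that over all genes was -0.07. Still 0 members passed the adjusted threshold (lowest adjusted p 0.683, edgeR). At an unadjusted p under 0.05, 5 members were higher in Eµ-PRMT5/TCL1, against 2.98% of all genes, and 0 were lower, against 2.8%. These 5 were Slc16a1 (log2 fold change 1.94, SE 0.55), Slc16a3 (1.98, SE 0.67), Hk3 (1.40, SE 0.59), Gapdh (0.86, SE 0.38) and Tpi1 (0.85, SE 0.38). Every Eµ-PRMT5/TCL1 mouse was then above every remaining Eµ-PRMT5 mouse for 6 members, namely Slc16a1, Gpi1, Pfkm, Tpi1, Gapdh and Taldo1, against 5.5% of all genes, and below for 0, against 5.25%. In the same comparison without mouse 4, 16 of 16 proliferation genes had a log2 fold change above 0, with a median of 1.64, and 14 had an unadjusted p under 0.05. Of the myeloid markers, 4 of 14 neutrophil and 4 of 6 macrophage markers were higher at that level. Their part in the differences of the members was not tested.

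**Figure D4:**
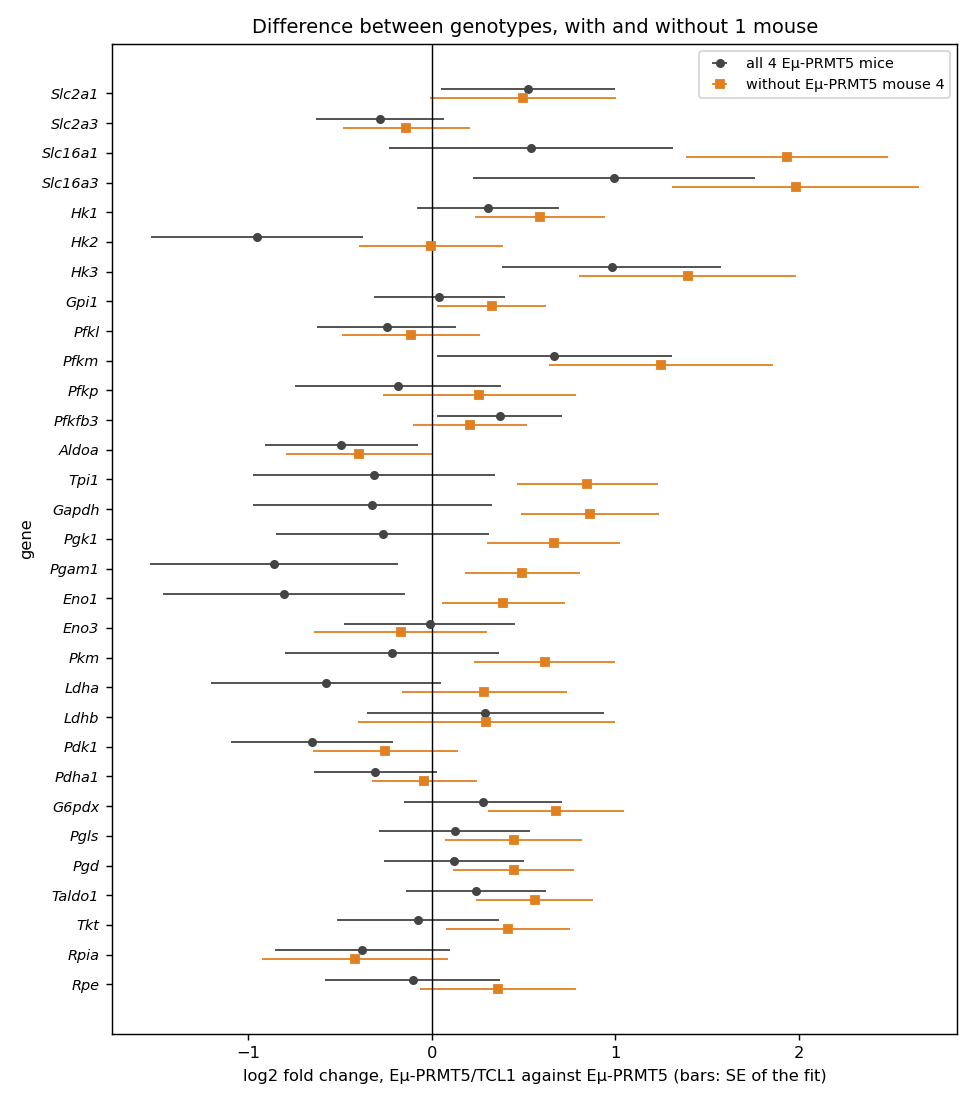
Log2 fold change of each member (rows) in Eµ-PRMT5/TCL1 over Eµ-PRMT5 mice (horizontal axis), with bars for the SE of the edgeR fit; gray circles use all mice and orange squares leave out Eµ-PRMT5 mouse 4. Eno1 lies at -0.80 with all mice and at 0.39 without mouse 4, and 23 of 31 squares lie above 0. Mouse 4 was the highest mouse for 22 members, so leaving it out moves most of them up.

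The comparisons with Eµ-TCL1 rest on 1 mouse, and the test asks no more than how far that mouse is from the spread among the other genotypes' mice. The paper reports a median survival for Eµ-TCL1 mice shorter than for Eµ-PRMT5 and longer than for Eµ-PRMT5/TCL1 mice. Age at ERC may therefore differ here too, and it cannot be told apart from genotype. Compared to the Eµ-TCL1 mouse, 0 members passed the adjusted threshold in Eµ-PRMT5 mice (lowest adjusted p 0.709, edgeR) and 0% of all genes did. At an unadjusted p under 0.05, 1 member was higher in Eµ-PRMT5, against 1.96% of all genes, and 1 was lower, against 4.82%. The higher one was Ldha, with a log2 fold change of 2.66 (SE 0.92), and the lower one Pfkfb3, with -1.13 (SE 0.50). Neither passed the adjusted threshold, with an adjusted p of 0.709 from edgeR for both. The median over the 31 members was 0.91 where that over all genes was 0.04, and 26 members were above 0, against 51.9% of all genes. Without Eµ-PRMT5 mouse 4 the median was 0.56 where that over all genes was 0.02, with 22 members above 0, against 51.1% of all genes. The mean log2 CPM of the members then differed by 0.26 in place of 0.59. The number of members higher at an unadjusted p under 0.05 was 7 without Eµ-PRMT5 mouse 1, against 4.51% of all genes, and 8 with DESeq2, against 4.9%. It was 2 without mouse 2, 4 without mouse 3 and 2 without mouse 4, against 1.55%, 3.89% and 2.08% of all genes.

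Eµ-PRMT5/TCL1 mice set against the same Eµ-TCL1 mouse gave a median of 0.94 over the members and -0.07 over all genes, with 26 members above 0, against 46.6% of all genes. Here 0 members and 0% of all genes passed the adjusted threshold (lowest adjusted p of a member 0.778, edgeR), and 0 members had an unadjusted p under 0.05, against 1.75% of genes higher and 4.33% lower. Without Eµ-PRMT5 mouse 4, which enters this comparison only through the shared estimate of spread, the gene filter and the scaling, 9 members were higher at that level, against 3.61% of genes. It was 3 without Eµ-PRMT5 mouse 1, against 3.16%, and 1 without Eµ-PRMT5/TCL1 mouse 3, against 1.55%. As most members were highest in Eµ-PRMT5 mouse 4, leaving it out favors a smaller estimate of their spread. The share of all genes is therefore no yardstick for the count without it. The median over the members was still 0.94 without that mouse. Both comparisons share the 1 Eµ-TCL1 mouse, whose library was the smallest of the 8, so their values are not independent. In that mouse Eno1 was 316 CPM and Ldha 233 CPM, each below the other 7 mice.

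Per kilobase of exon, the most abundant members in Eµ-PRMT5 mice were Aldoa (505 CPM per kilobase), Ldha (446), Eno1 (310) and Pkm (294), and in Eµ-PRMT5/TCL1 mice Aldoa (359), Ldha (300), Pkm (253) and Eno1 (177). The Eµ-PRMT5 means include mouse 4. Without it mean CPM fell from 1665 to 728 for Eno1 and from 1472 to 827 for Pkm, so the order of Eno1 and Pkm depended on that mouse. The least abundant in Eµ-PRMT5 mice were Rpia (3.16 CPM per kilobase), Slc16a3 (3.65) and Pfkm (3.74). Ranks at both ends depended on the length used. For Rpia this was 5359 bases with all exons, against 1829 in its longest coding transcript. Isoenzymes were compared as shares of their family, with CPM divided by the length of all exons. Ldha made up 97.0% to 99.6% of the lactate dehydrogenase transcripts in the Eµ-PRMT5 and Eµ-PRMT5/TCL1 mice and 84.2% in the Eµ-TCL1 mouse. This share is low where Ldha was lowest and Ldhb highest. Eno1 made up 96.8% of the enolase pair in Eµ-PRMT5 mouse 4 and 94.2% in Eµ-PRMT5/TCL1 mouse 1, against 70.6% to 76.5% in the other 6 mice. Among hexokinases, Hk3 took 64.6% in Eµ-PRMT5/TCL1 mouse 1, where Hk1 took 24.8%, and 17.3% in the Eµ-TCL1 mouse, where Hk1 took 68.9%. Hk2 took 24.98% ± 9.96 (SD, n = 4) in Eµ-PRMT5 and 11.9% ± 2.97 (SD, n = 3) in Eµ-PRMT5/TCL1 mice. The 4 Eµ-PRMT5 values for Hk2 were 26.97%, 24.5%, 12.1% and 36.3%, and the 3 Eµ-PRMT5/TCL1 values were 10.7%, 9.79% and 15.3%, so that the groups overlapped through Eµ-PRMT5 mouse 3.

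Phosphofructokinase transcripts were mostly Pfkl and Pfkp, and Pfkm took 1.05% to 15.8%. Pfkl took 54.6% ± 12.9 (SD, n = 4) and Pfkp 39.3% ± 11.5 in Eµ-PRMT5 mice with the length of all exons, but 40.7% and 57.0% without length scaling, so the order depended on the length used. Slc2a1 made up 66.2% to 90.8% of the glucose carrier pair. Slc16a1 and Slc16a3 shared the lactate carriers unevenly between mice, with Slc16a1 at 33.6% in Eµ-PRMT5/TCL1 mouse 1 and 77.2% in mouse 3 of the same genotype.

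**Figure D5:**
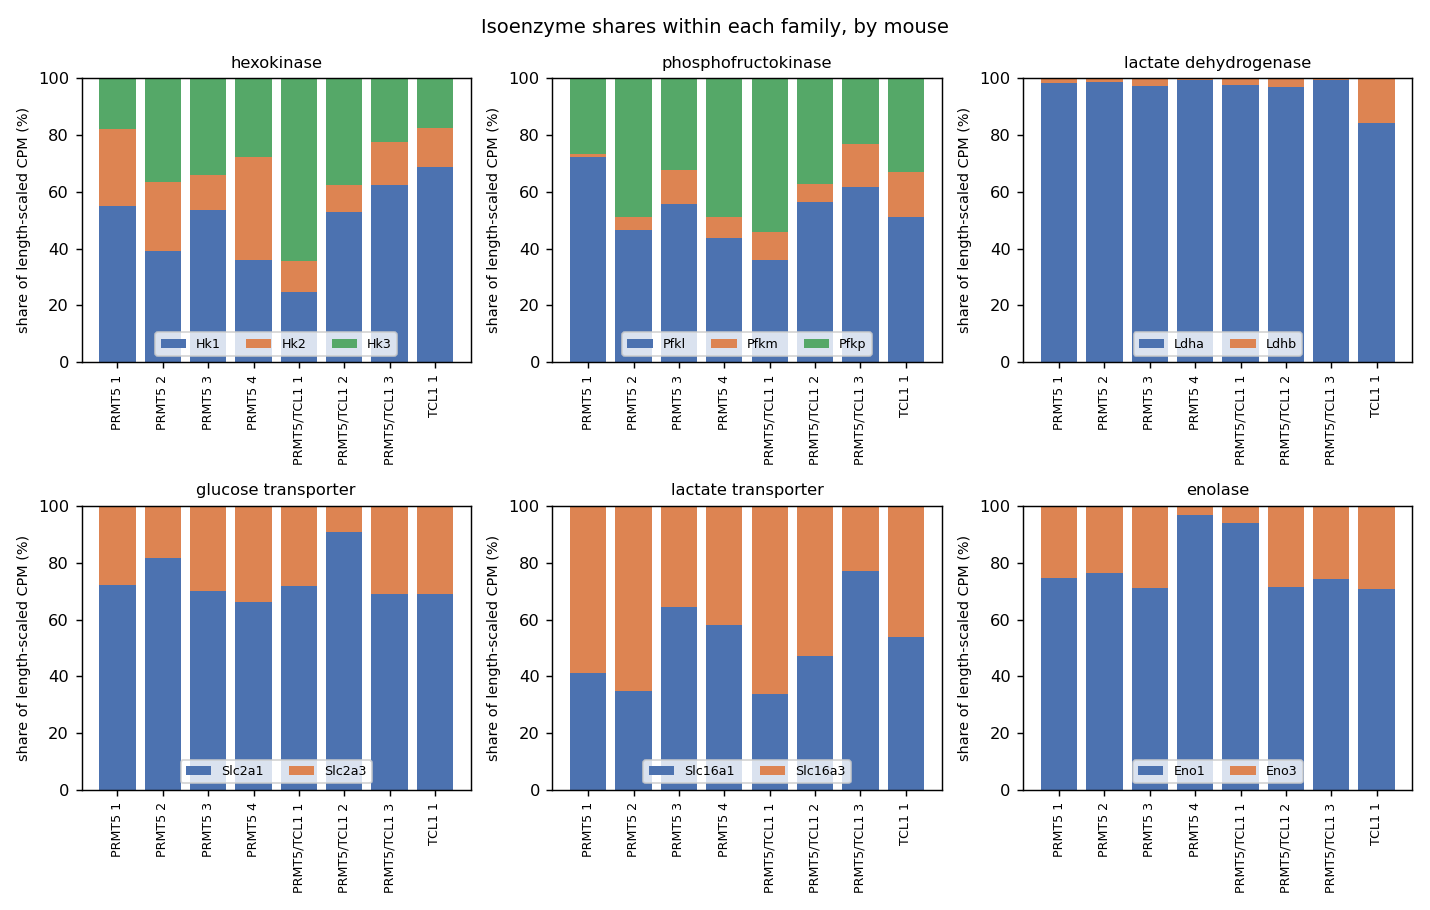
Share of each isoenzyme (vertical axes, percent of length-scaled CPM within the family) in each mouse (horizontal axes) for 6 families; colors part the isoenzymes. Ldha holds 84.2% in the Eµ-TCL1 mouse and at least 97.0% in the others, and Hk3 holds 64.6% in Eµ-PRMT5/TCL1 mouse 1.

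Other genes of the pathway were read from lists, each with 0 genes past the adjusted threshold and 0 at an unadjusted p under 0.05 when Eµ-PRMT5/TCL1 was set against Eµ-PRMT5 (edgeR). Of 51 further genes of sugar metabolism, 42 were tested, 17 had a log2 fold change above 0 and the median was -0.16 (21 and -0.01 without Eµ-PRMT5 mouse 4). The lowest p-values belonged to Pygm, muscle glycogen phosphorylase (-1.10, SE 0.52), Gpd2, the mitochondrial glycerol phosphate dehydrogenase (0.81, SE 0.40), Rbks, ribokinase (-0.71, SE 0.41), and Eno2, the neuronal enolase (1.39, SE 0.90). Pygm measured 13.6, 11.1, 6.38 and 7.61 CPM across Eµ-PRMT5 animals 1 to 4 and 5.57, 2.86 and 5.07 CPM across Eµ-PRMT5/TCL1 animals 1 to 3, which did not overlap, with 20.8 CPM in the lone Eµ-TCL1 animal. Gpd2 measured 91.7, 76.2, 55.4 and 79.6 CPM across Eµ-PRMT5 animals 1 to 4 and 130.2, 204 and 62.9 CPM across Eµ-PRMT5/TCL1 animals 1 to 3, which overlapped through mouse 3.

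Of 19 regulators of the pathway, 16 were tested, with 12 above 0 and a median of 0.06 (8 and 0.05 without Eµ-PRMT5 mouse 4). The 4 with the lowest p-values were Egln1 (-0.61, SE 0.41) and Egln2 (0.43, SE 0.39), prolyl hydroxylases that mark HIF1A for decay, Mlxip, the glucose-sensing partner of MLX (-0.23, SE 0.29), and Vhl, the ligase subunit that removes HIF1A (0.29, SE 0.42). All of these differences were smaller than 2 SE. Of 15 known hypoxia targets outside glycolysis, 12 were tested, and 12 of 12 had a log2 fold change below 0 with a median of -0.29, where 40.6% of all genes were above 0. These were led by Bnip3 (-0.85, SE 0.50) and Bnip3l (-0.56, SE 0.37), mitophagy receptors, followed by Ankrd37 (-1.02, SE 0.68) and P4ha1, a collagen prolyl hydroxylase (-0.43, SE 0.43). Without Eµ-PRMT5 mouse 4, 2 of the 12 were above 0 and the median was -0.48. In Eµ-PRMT5 mouse 4, 3 of these 12 targets were highest, which is close to the 20.1% of all tested genes.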

How the data were processed

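Splenic B cells of 8 mice were profiled. Raw read counts per gene symbol, made from bulk RNA-seq, were deposited by the authors, and the submitters' processing notes name featureCounts of Subread, DESeq2 1.20.0 and build GRCm38. The methods describe low-input preamplification before library preparation, whereas the labels describe a stranded kit. Preamplification can widen the spread of genes with few counts. The aligner, annotation release, use of strand and the meaning of missing values (3427 to 8523 per library) are not given in the sources used here. Rows missing in any library were left out, 2 symbols occurred more than once, and members were counted on 11 to 38817 reads.

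From the counts, edgeR 4.0.16 (R 4.3.3) was run with TMM factors, its filter on low counts by group and the quasi-likelihood test, in 1 model of the 3 genotypes with 5 residual degrees of freedom and Benjamini-Hochberg adjustment over 13173 genes. The biological coefficient of variation was 0.483. Log2 CPM used a prior count of 2. The script was tested on simulated counts. Exon lengths came from GENCODE vM21 (GRCm38) and upstream sequences from RefSeq. The members, lists and tests were chosen with earlier results of these data known. All members are named, and of each other pathway list the 4 genes with the lowest unadjusted p between Eµ-PRMT5/TCL1 and Eµ-PRMT5. Myc and Hif1a are given besides, because their products are named with the members. Alternatives were DESeq2 1.42.0, upper-quartile or library-size scaling, a minimum of 10 counts in each library or none, missing values as 0, only the groups compared, each replicate left out, the replicate number as a block and, for means and shares, other prior counts, no low members and no length scaling. Chosen after seeing the data were shares with the longest coding transcript, overlap of groups without Eµ-PRMT5 mouse 4, and the highest and lowest mouse under other scalings. Python 3.11.15, pandas 2.3.3, numpy 2.4.6 and matplotlib 3.10.9 were used for the remaining steps. Fold changes or p-values of the authors were not used.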

Additional observations from a re-analysis of the deposited data

Results flagged for a closer look

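Among the 4 Eµ-PRMT5 mice, a single mouse lay far from the others for 2 of 32 quantities examined (the 31 members and their mean), where chance gives about 1.6. The low value of Aldoa in Eµ-PRMT5 mouse 3 was a log2 CPM of 9.5005, against 10.71 to 10.78 in the remaining animals of that genotype, a gap of 0.941 of the range and above the critical value of Dixon's test for 4 values. The high value of Eno1 in Eµ-PRMT5 mouse 4 was a log2 CPM of 12.128, against 9.27 to 9.64, a gap of 0.872 of the range.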

How the results depend on the processing

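No member passed the adjusted threshold in any comparison under any alternative. Some other genes did, and for Eµ-PRMT5/TCL1 against Eµ-PRMT5 DESeq2 called 3 higher and 1 lower of all 13173. For Eµ-PRMT5/TCL1 against Eµ-PRMT5, the number of members higher at an unadjusted p under 0.05 was 0 with all mice, 0 to 5 with a replicate left out (5 without Eµ-PRMT5 mouse 4, against 2.98% of all genes, and 1 without Eµ-PRMT5/TCL1 mouse 3, against 1.01%) and 5 with the replicate block, against 3.92%. For Eµ-PRMT5 against Eµ-TCL1 it was 1, and 1 to 7 with a replicate left out, 8 with DESeq2 (4.9% of all genes), 3 with missing values as 0 (2.46%) and 0 with only the groups compared. The number lower was 1, and 0 to 1 with a replicate left out, and 0 with DESeq2, missing values as 0, only the groups compared, or the replicate block. For Eµ-PRMT5/TCL1 against Eµ-TCL1 the number higher was 0, and 0 to 9 with a replicate left out, 3 with DESeq2 (3.61% of all genes), 1 with at least 10 counts in every sample (2.31%), 1 with missing values as 0 (2.03%), 15 with only the groups compared (8.68%), and 9 with the replicate block (4.2%), while the number lower was 0 to 1 with a replicate left out. The Eµ-TCL1 mouse, being single, could not be left out. The mean of the members differed between Eµ-PRMT5/TCL1 and Eµ-PRMT5 by -0.0774 to 0.457 log2 CPM with a replicate left out, between Eµ-PRMT5 and Eµ-TCL1 by 0.59, against 0.34 with library size only, and between Eµ-PRMT5/TCL1 and Eµ-TCL1 by 0.716, against 0.493 with library size only and 1.02 with missing values as 0. With library size only, the median over all genes was -0.21 for Eµ-PRMT5 and -0.30 for Eµ-PRMT5/TCL1 against Eµ-TCL1, with members' medians of 0.61 and 0.71. Without length scaling the mean share in Eµ-PRMT5 mice was 92.1% for Eno1, 60.2% for Hk1, 40.7% for Pfkl and 56.4% for Slc2a1, and with the longest coding transcript 59.9% for Hk1 and 61.0% for Slc2a1. Every Eµ-PRMT5/TCL1 mouse was above every Eµ-PRMT5 mouse for 1 member (Pfkfb3) with upper-quartile factors, against 1.63% of all genes, and for 6 without Eµ-PRMT5 mouse 4, against 5.5%. Most members were highest in mouse 4, so leaving it out favors a higher count for Eµ-PRMT5/TCL1 against either other genotype. The share of all genes is no yardstick for such a count. The same holds for the replicate block, where mouse 4 is alone with its number. It also holds for Eµ-PRMT5/TCL1 against Eµ-TCL1 with only the groups compared, which leaves this mouse out.

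Of 495 alternative log2 fold changes of single members, 44 changed sign. Leaving out Eµ-PRMT5 mouse 4 and the replicate block each turned 10, the same 10 members. In the block this mouse is alone with its number and does not inform the comparison. Same-numbered mice of the 2 replicated genotypes had correlations of deviations of -0.02, 0.154 and 0.160, and the numbers mark different animals, so they were not taken as pairs. With the replicate block the log2 fold changes between Eµ-PRMT5/TCL1 and Eµ-PRMT5 were 0.21 for Pfkp, 0.94 for Tpi1, 0.93 for Gapdh, 0.66 for Pgk1, 0.53 for Pgam1, 0.37 for Eno1, 0.61 for Pkm, 0.49 for Ldha, 0.43 for Tkt and 0.33 for Rpe. Upper-quartile factors gave 0.0226 for Eno3, 0.0183 for Tkt and 0.008 for Rpe, and Eno3 was 0.0002 with at least 10 counts, 0.0441 with missing values as 0 and 0.0072 with only the groups compared. With a replicate left out, the ranges of members that changed sign were -0.40 to 0.84 for Slc2a1, -0.0599 to 0.33 for Gpi1, -0.70 to 0.26 for Pfkp, -0.65 to 0.85 for Tpi1, -0.65 to 0.86 for Gapdh, -0.59 to 0.67 for Pgk1, -1.15 to 0.49 for Pgam1, -1.08 to 0.39 for Eno1 and -0.28 to 0.40 for Eno3. They were -0.53 to 0.62 for Pkm, -0.91 to 0.29 for Ldha, -0.11 to 0.71 for Ldhb, -0.0069 to 0.68 for G6pdx, -0.0855 to 0.45 for Pgls, -0.15 to 0.45 for Pgd, -0.29 to 0.42 for Tkt and -0.35 to 0.36 for Rpe. The log2 fold change of Ldha against Eµ-TCL1 in Eµ-PRMT5 mice was 1.80 without Eµ-PRMT5 mouse 4. Apart from the place of that mouse, the cause of these changes was not tested.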
